A study of Mus musculus with 3 samples.

Results

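The zinc, anion and organic ion transporters examined here are 62 genes of the solute carrier families Slc5, Slc13, Slc22, Slc26, Slc30, Slc34 and Slc39, out of 17633 genes with at least 1 read in any library. They were taken by symbol from the gene tables of the endoderm, mesoderm and epiblast of embryonic day (E) 7.5 mouse embryos, with 3 symbols left out of the choice, and the rule uses no measured value. The families themselves were chosen with earlier results of these data known, so comparisons with all genes are not independent of those results. Slc22 has 15 members, Slc39 has 12, Slc5 has 11, Slc26 and Slc30 have 9 each, Slc13 has 4 and Slc34 has 2. The embryos were of the outbred ICR strain, with no genetic change or treatment named in the labels. Each germ layer was separated from the embryos and pooled over many of them, and sequenced as 1 library, so no value below has a replicate check. By the study's description, the epiblast sample consisted of neuroectoderm and primitive streak. In such whole-tissue RNA, fewer cells of a type and less RNA per cell cannot be told apart.

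Cells control zinc through opposed families. Slc39 proteins (ZIP) bring zinc into the cytosol from outside the cell or from organelles. Slc30 proteins (ZnT) mainly move it out of the cytosol. Slc26 proteins exchange anions such as sulfate, chloride, bicarbonate and oxalate, whereas Slc13, Slc34 and Slc5 proteins use the sodium gradient to carry sulfate and dicarboxylates, phosphate, and sugars, iodide or vitamins. Slc22 proteins carry organic cations and anions, including carnitine and many drugs. Before the placenta works, the visceral endoderm that surrounds the mouse embryo is an absorptive epithelium through which much of its nutrient supply passes.

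The libraries held 41.7 M (endoderm), 40.8 M (mesoderm) and 42.7 M (epiblast) uniquely mapped reads counted on genes, over 16385, 16201 and 16430 genes. Levels are given as RPKM, the reads scaled to gene length in kilobases and to the counted total in M reads. The libraries were checked against marker lists. The 7 visceral endoderm markers summed to 5752 RPKM in endoderm, 4.48 in mesoderm and 3.78 in epiblast, so that mesoderm held 0.0779% and epiblast 0.0656% of the endoderm sum. The 4 definitive and anterior endoderm markers summed to 232.5, 55.5 and 4.28 RPKM in the same order, of which *Cer1* gave 137.9, 47.4 and 0.66, so that mesoderm held 23.9% and epiblast 1.84% of that sum. Markers of both lists were thus present in the endoderm library. These sums do not show which kinds of endoderm it held, and the parts of such kinds in the values below were not tested. Of the 6 mesoderm markers *Foxf1* had no reads, and the other 5 were highest in mesoderm and summed to 18.3, 417.0 and 88.7 RPKM. The 6 epiblast markers summed to 163.3, 198.1 and 1302.5 RPKM and 5 were highest in epiblast, while *Fgf5* was at 6.64, 2.19 and 6.32 RPKM. The 3 parietal endoderm markers summed to 52.1, 31.1 and 3.73 RPKM, trophoblast markers (4 of 7 with reads) to 27.4, 7.56 and 2.65, erythroid markers (4 of 6) to 3.65, 5.92 and 1.41, and decidual markers (4 of 5) to 0.66, 6.72 and 4.07. Among the trophoblast markers *Plac1* (19.9, 6.25 and 0.569 RPKM) and *Esx1* (7.11, 0.0606 and 0.131 RPKM) were higher in endoderm than in both other layers by the criteria given below. In contrast, *Elf5* (0.108, 0.133 and 0.328 RPKM) and *Ascl2* (0.268, 1.12 and 1.63 RPKM) were highest in epiblast. *Tpbpa*, *Prl3d1* and *Prl2c2* had no read in any library. The embryonic globin gene *Hbb-bh1* had 0, 37 and 0 reads, *Hbb-y* and *Hba-x* had none, and neither had the decidual *Prl8a2*. Of the other erythroid markers *Gata1* was highest in endoderm (246, 184 and 51 reads), and *Klf1* and *Alas2* were highest in mesoderm. The part of such cells in the endoderm values was not tested.

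As a whole, the transporters were highest in endoderm. Summed RPKM was 980.2, 284.6 and 252.1 for endoderm, mesoderm and epiblast, and the members took 0.325%, 0.104% and 0.0854% of all counted reads. Reads were present in all 3 libraries for 44 members, in 2 for 13 and in 1 for 5. Of the 36 members above an RPKM of 1, 29 were highest in endoderm (80.6%), 4 in mesoderm (11.1%) and 3 in epiblast (8.33%), while the 12232 genes above that level divided into 36.6%, 30.5% and 32.9%. The sulfate transporter *Slc13a4* and the zinc importers *Slc39a8*, *Slc39a7*, *Slc39a5* and *Slc39a4* had the highest endoderm levels, at 303.6, 153.4, 87.4, 85.6 and 65.8 RPKM.

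The comparisons between germ layers ask which members differed in level, with the study's criteria of RPKM>5 in at least 1 of the 2 libraries, Fold Change>2 and FDR<0.001. Read counts of 2 libraries were set against each other by the Audic and Claverie exact test, Benjamini-Hochberg adjusted over all genes with reads. Such a test compares the libraries, not the germ layers as such, and covers counting error only. Between endoderm and mesoderm 12 of 62 members met the criteria (19.4%, against 11.9% of the 17194 genes tested). Of these, 11 were higher in endoderm (17.7% of members, against 7.44% of genes) and 1, *Slc39a6*, was higher in mesoderm (1.61% against 4.41%). Between endoderm and epiblast 13 members met them (21.0% against 12.6% of 17267 genes), and all 13 were higher in endoderm, where 8.02% of genes were higher in endoderm and 4.58% in epiblast. Between mesoderm and epiblast 3 members met them (4.84% against 5.04% of 17100 genes), a share near that of all genes; *Slc39a8*, *Slc39a6* and *Slc22a23* were all higher in mesoderm, where 2.58% of genes were higher in mesoderm and 2.45% in epiblast. The pairs that involve endoderm share that library. The median log2 ratio of the 36 members above an RPKM of 1 was 1.04 for endoderm over mesoderm and 1.36 for endoderm over epiblast, beside −0.11 and −0.09 for all 12232 genes above that level. For mesoderm over epiblast it was 0.08, beside 0.01. Without the level filter, the medians over all members tested were 1.04, 0.79 and 0.0 in the same order of pairs. Those of all genes tested were −0.03, −0.02 and 0.0.

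**Figure D1:**
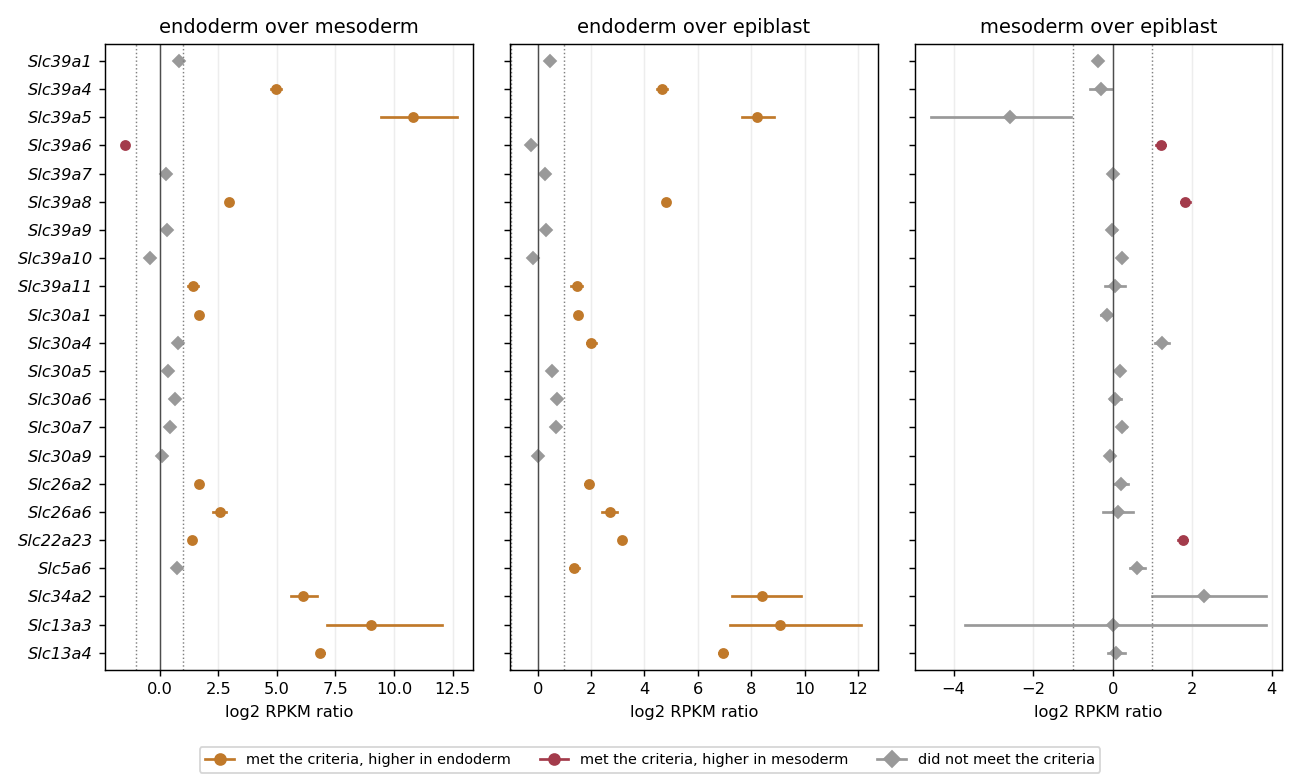
Log2 RPKM ratio of the 22 members above an RPKM of 5 in any library, for endoderm over mesoderm (left), endoderm over epiblast (middle) and mesoderm over epiblast (right), with 1 library per germ layer. Horizontal lines are 95% counting intervals, dotted vertical lines mark Fold Change of 2, and coloured circles are members that met the criteria; those in the left and middle panels lie to the right of 0 with the exception of *Slc39a6*, which was higher in mesoderm.

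In all, 14 members met the criteria in 1 pair or more, that is 22.6%, against 16.3% of all 17633 genes, and 13 of them were highest in endoderm and 1 in mesoderm. Of these, 11 were higher in endoderm than in both other layers, and *Slc39a8* and *Slc22a23* differed in all 3 pairs. Another 8 members passed an RPKM of 5 and did not meet the criteria in any pair, 12 members that peaked between 1 and 5 RPKM passed the fold and FDR criteria but not the level, and 28 were outside these groups. Of the 28, 11 also passed the fold and FDR criteria in a pair but peaked at an RPKM of 1 or less. At any level, the fold and FDR criteria were passed in 1 pair or more by 37 members (59.7%, against 37.3% of all genes). The counts for single families and partner lists below are small and were not tested against the shares of all genes.

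**Figure D2:**
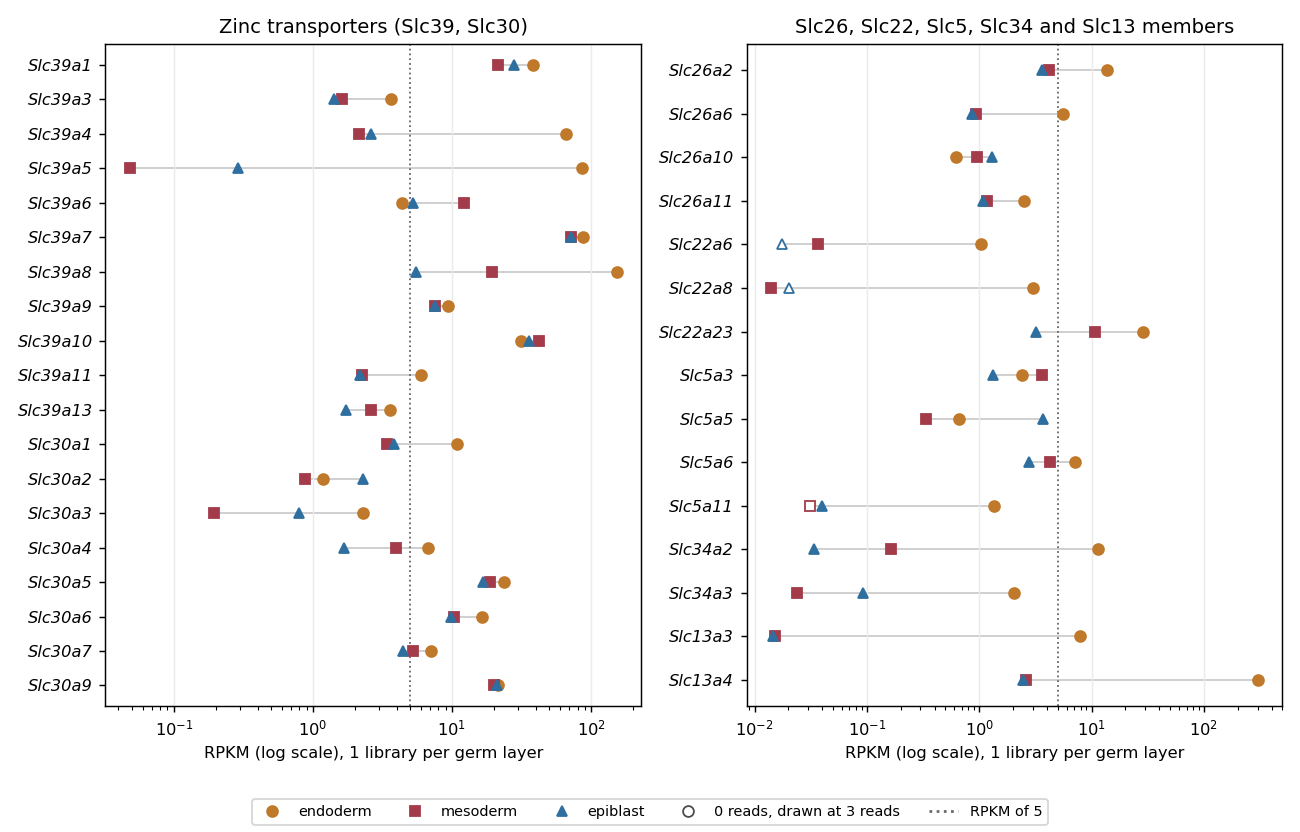
RPKM on a log axis in endoderm (circles), mesoderm (squares) and epiblast (triangles) for the 19 zinc transporters (left) and 15 other members (right) described by name, with 1 library per germ layer. The dotted line is an RPKM of 5, and open symbols are libraries with 0 reads drawn at the level of 3 reads, which is why the 2 mesoderm reads of *Slc22a8* lie to the left of its open epiblast symbol; most circles lie farthest right.

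The Slc39 importers divided into members far higher in endoderm, members at similar levels in all layers and *Slc39a6*, which peaked in mesoderm. *Slc39a8* (chr3:135825279-135888572, GRCm38), which carries zinc, manganese and cadmium together with bicarbonate, had 22574, 2813 and 829 reads in endoderm, mesoderm and epiblast, or 153.4, 19.5 and 5.49 RPKM. Each layer differed from the next, with endoderm 7.87-fold over mesoderm (95% counting interval 7.57 to 8.19), endoderm 27.9-fold over epiblast (26.05 to 29.96) and mesoderm 3.55-fold over epiblast (3.28 to 3.84).

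*Slc39a5* (chr10:128395931-128401229), an importer of the basolateral membrane of gut and pancreatic cells, had 7242, 4 and 25 reads, or 85.6, 0.0482 and 0.288 RPKM. Nearly all of its reads were in the endoderm library, and endoderm was 1776-fold over mesoderm (693 to 6518) and 297-fold over epiblast (201 to 459). Its mesoderm level was 0.0563% of that in endoderm, beside 0.0779% for the summed visceral endoderm markers and 23.9% for the definitive and anterior ones, and its epiblast level was 0.337%, beside 0.0656% and 1.84%. The 25 reads in epiblast and 4 in mesoderm gave a ratio of 5.98 (2.06 to 23.6), which did not meet the level criterion.

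*Slc39a4* (chr15:76612383-76617384), which takes up dietary zinc at the apical membrane of the intestine, had 6166, 196 and 253 reads, or 65.8, 2.13 and 2.63 RPKM. Endoderm was 30.9-fold over mesoderm (26.8 to 35.8) and 24.99-fold over epiblast (22.03 to 28.45). Its mesoderm and epiblast levels were 3.24% and 4.002% of that in endoderm. The mesoderm share lay between those of the summed visceral (0.0779%) and summed definitive and anterior endoderm markers (23.9%). The epiblast share lay above both sums (0.0656% and 1.84%). *Cer1* gave most of the second sum in endoderm and mesoderm, and single markers of that list differed. In mesoderm *Sox17* (2.54%) was below *Slc39a4*, *Foxa2* (3.17%) was close to it, and *Cer1* (34.4%) and *Hhex* (51.3%) were above. In epiblast *Sox17* (0.815%) and *Cer1* (0.478%) were below it, and *Foxa2* (5.86%) and *Hhex* were above. Reads covered 95.9% and 94.9% of the length of *Slc39a4* in mesoderm and epiblast, against 98.6% in endoderm. *Slc39a11* (chr11:113244853-113650079), of the gufA subfamily, was lower, at 6.02, 2.27 and 2.19 RPKM, with endoderm 2.66-fold over mesoderm (2.30 to 3.08) and 2.76-fold over epiblast (2.38 to 3.19).

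*Slc39a6*, an importer of the LIV-1 subfamily that is linked to epithelial-mesenchymal transition, showed the opposite order. Its reads numbered 710, 1934 and 876 in the order used above, or 4.36, 12.1 and 5.25 RPKM. Mesoderm was 2.78-fold over endoderm (2.55 to 3.03) and 2.31-fold over epiblast (2.13 to 2.50), and endoderm and epiblast differed 1.20-fold (1.09 to 1.33). *Slc39a10*, its close relative and known partner protein, peaked in mesoderm too but by less than 2-fold, at 31.6, 42.3 and 36.1 RPKM.

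The other Slc39 members above an RPKM of 5 were level by comparison. *Slc39a7*, which releases zinc from the endoplasmic reticulum, had 87.4, 72.1 and 72.0 RPKM, and its mesoderm to epiblast ratio was 1.002 (0.969 to 1.04). *Slc39a1*, a plasma membrane importer of many tissues, had 38.4, 21.4 and 27.8 RPKM, and its endoderm to mesoderm ratio of 1.80 (1.70 to 1.90) was under the Fold Change criterion. *Slc39a9* had 9.41, 7.57 and 7.60 RPKM. Exons of *Slc39a7* overlap the annotated transcript *Gm20427* on the same strand and those of *Slc39a9* overlap *Erh* on the other strand, and since no source used here states strand-aware counting, their reads may be shared.

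Below an RPKM of 5, *Slc39a3* had 3.62, 1.63 and 1.41 RPKM, and endoderm was 2.21-fold over mesoderm (1.89 to 2.60) and 2.56-fold over epiblast (2.18 to 3.02). *Slc39a13*, of the Golgi, had 3.60, 2.63 and 1.72 RPKM, with endoderm 2.09-fold over epiblast (1.73 to 2.53), and overlaps *Psmc3*. The last member, *Slc39a2*, reached 26 reads.

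Because RPKM is per length, the members can be summed. The family sum was 489.6, 183.7 and 162.6 RPKM for endoderm, mesoderm and epiblast, and its makeup differed between the libraries. *Slc39a4*, *Slc39a5* and *Slc39a8* together gave 62.3%, 11.8% and 5.18% of this sum. The other 9 members summed to 184.7, 162.0 and 154.2 RPKM. *Slc39a7* gave 17.9%, 39.3% and 44.3% of the sum and *Slc39a10* gave 6.45%, 23.0% and 22.2%, so in mesoderm and epiblast these were the leading members. By subfamily, 4 of 7 LIV-1 members met the criteria in a pair, among them *Slc39a6*, which was highest in mesoderm. The 7 members summed to 431.8, 150.8 and 123.4 RPKM. None of 3 ZIP II members met the criteria, at 42.3, 23.0 and 29.4 RPKM, nor did the 1 ZIP I member, whereas the 1 gufA member did. Of all genes 16.3% met them in a pair. The subfamilies are too small to be compared by such counts, and a difference between them was not tested.

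**Figure D3:**
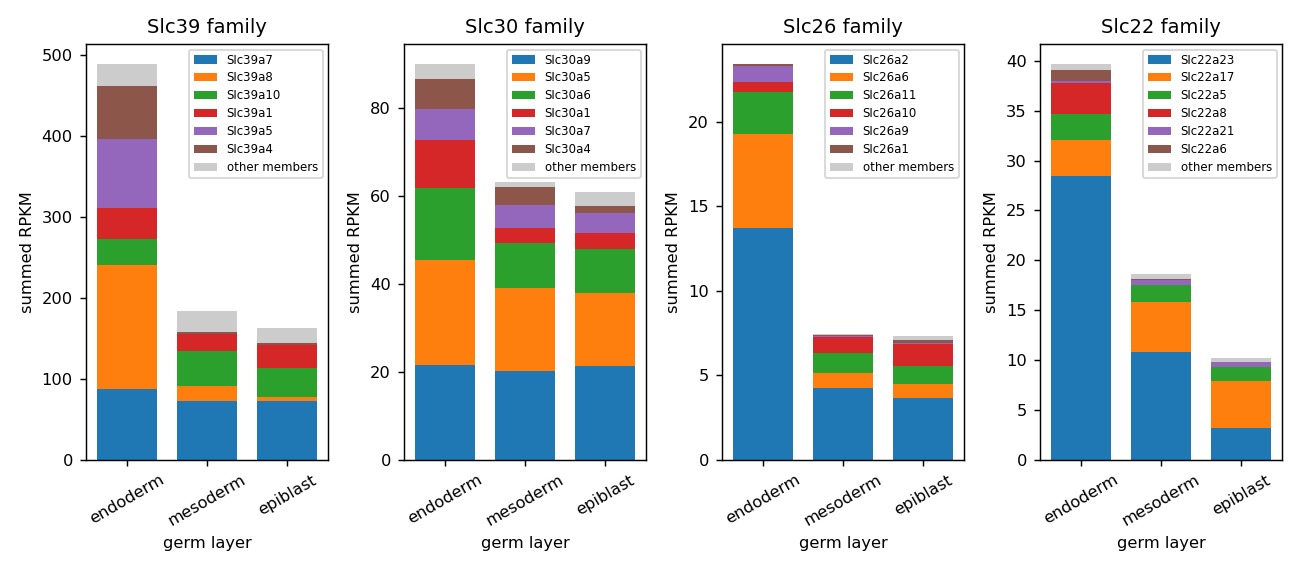
Summed RPKM of the Slc39, Slc30, Slc26 and Slc22 families in each germ layer, with 1 library per layer and the 6 members of highest total drawn as coloured parts of each bar. Slc39 falls from 489.6 in endoderm to 162.6 in epiblast mainly through *Slc39a8*, *Slc39a5* and *Slc39a4*. In the Slc30 bars *Slc30a5* and *Slc30a9* are the largest parts in each layer. The share of *Slc30a9* is 23.9%, 31.9% and 34.9% in endoderm, mesoderm and epiblast, and that of *Slc30a1* is 12.1%, 5.44% and 6.26%.

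Of the 9 Slc30 members 2 met the criteria in a pair, beside 16.3% of all genes, and both were highest in endoderm. So small a count does not set the family apart from all genes. The family summed to 90.0, 63.0 and 60.8 RPKM in endoderm, mesoderm and epiblast, 1.43-fold and 1.48-fold higher in endoderm. The Slc39 ratios of 2.67 and 3.01 rest on *Slc39a4*, *Slc39a5* and *Slc39a8*, without which the family summed to 184.7, 162.0 and 154.2 RPKM, and a difference between the families was not tested. *Slc30a1* (chr1:191906767-191913247), the main exporter of the plasma membrane and a known target of the zinc-sensing factor encoded by *Mtf1*, had 2365, 732 and 851 reads, or 10.9, 3.43 and 3.81 RPKM. Endoderm was 3.17-fold over mesoderm (2.92 to 3.45) and 2.85-fold over epiblast (2.63 to 3.09), and epiblast and mesoderm differed 1.11-fold (1.01 to 1.23).

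*Slc30a4* (chr2:122681233-122702663), which loads zinc into vesicles, followed a graded order, with 1537, 884 and 393 reads or 6.74, 3.95 and 1.68 RPKM. Endoderm was 4.01-fold over epiblast (3.59 to 4.49), which met the criteria. The endoderm to mesoderm ratio was 1.71 (1.57 to 1.85) and the mesoderm to epiblast ratio 2.35 (2.09 to 2.66), and these missed the fold and the level criterion, respectively. Exons of *Slc30a1* and *Slc30a4* overlap non-coding genes on the other strand, *1700034H15Rik* and *4930417H01Rik*.

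The exporters of the secretory pathway were present in every layer within a factor of 2. *Slc30a5* had 23.9, 18.9 and 16.6 RPKM, *Slc30a6*, its partner in a heteromer, had 16.4, 10.3 and 9.89, and *Slc30a7* had 7.08, 5.22 and 4.43. *Slc30a9*, which moves zinc out of mitochondria, was the most even member, at 21.5, 20.1 and 21.3 RPKM, with an endoderm to epiblast ratio of 1.01 (0.962 to 1.06). It gave 23.9%, 31.9% and 34.9% of the family sum, which is therefore not a sum of exporters from the cytosol alone. At lower levels, *Slc30a3*, the exporter of synaptic vesicles, had 191, 16 and 68 reads (2.29, 0.195 and 0.794 RPKM), with endoderm 11.7-fold over mesoderm (7.03 to 20.9). *Slc30a2*, a vesicle exporter of secretory glands, peaked in epiblast with 162, 119 and 323 reads (1.17, 0.879 and 2.28 RPKM), and epiblast was 2.60-fold over mesoderm (2.10 to 3.23). *Slc30a10* reached 22 reads.

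The metallothioneins bind surplus zinc in the cytosol and are, like *Slc30a1*, known targets of the zinc sensor *Mtf1*. *Mt1* had 682.7, 9.83 and 148.9 RPKM and *Mt2* had 540.6, 8.37 and 123.1, so both were highest in endoderm and lowest in mesoderm. For *Mt1*, endoderm was 69.5-fold over mesoderm (61.1 to 79.4) and 4.59-fold over epiblast (4.43 to 4.75), and epiblast was 15.1-fold over mesoderm (13.3 to 17.4). Its ratio to *Mt2* was 1.26, 1.17 and 1.21 in the 3 libraries. *Slc30a1* followed the same order, with mesoderm and epiblast close to each other. *Mtf1* itself was even, at 3.44, 2.69 and 2.91 RPKM. Of the 5 genes of this list 2 met the criteria, *Mt3* had 0, 2 and 30 reads, and *Mt4* had no reads.

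As the metallothioneins and 2 exporters met the criteria, the 250 bases before their RefSeq starts (GRCm38.p6) are shown, with matches to the metal response element core TGCACNC or TGCGCNC, to which the zinc sensor binds, in capitals. Both strands were searched, so that a match on the opposite strand reads GNGTGCA or GNGCGCA. The order is *Slc30a1* (chr1:191906531-191906780, plus strand), *Slc30a4* (chr2:122702664-122702913, minus strand), *Mt1* (chr8:94178839-94179088, plus strand) and *Mt2* (chr8:94172368-94172617, plus strand).
Slc30a1: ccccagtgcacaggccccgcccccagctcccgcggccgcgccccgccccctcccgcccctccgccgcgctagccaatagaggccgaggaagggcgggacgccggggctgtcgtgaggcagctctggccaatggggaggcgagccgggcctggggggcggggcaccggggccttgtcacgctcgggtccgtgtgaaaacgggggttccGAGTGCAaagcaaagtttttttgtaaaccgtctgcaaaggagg
Slc30a4: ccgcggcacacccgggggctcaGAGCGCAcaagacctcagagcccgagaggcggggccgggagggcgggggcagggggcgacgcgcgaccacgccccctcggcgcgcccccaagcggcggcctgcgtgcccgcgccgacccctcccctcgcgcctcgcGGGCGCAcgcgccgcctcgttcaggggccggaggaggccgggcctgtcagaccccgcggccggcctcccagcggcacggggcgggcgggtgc
Mt1: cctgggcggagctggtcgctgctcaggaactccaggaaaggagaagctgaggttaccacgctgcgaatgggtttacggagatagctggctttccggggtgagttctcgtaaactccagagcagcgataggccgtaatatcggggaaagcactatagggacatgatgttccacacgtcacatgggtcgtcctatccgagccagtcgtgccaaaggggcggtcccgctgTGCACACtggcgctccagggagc
Mt2: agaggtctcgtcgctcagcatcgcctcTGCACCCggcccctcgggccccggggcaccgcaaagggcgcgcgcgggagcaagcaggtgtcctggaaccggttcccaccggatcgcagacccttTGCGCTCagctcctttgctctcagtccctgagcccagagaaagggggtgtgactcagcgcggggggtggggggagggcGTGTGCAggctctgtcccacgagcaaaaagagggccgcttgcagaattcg
The windows held 1, 2, 1 and 3 matches. Of 32851 RefSeq starts 21.4% held at least 1 match, 5.17% held 2 or more and 1.26% held 3 or more. Of the 50 members with a RefSeq entry in this table, a match was found for 17 (against 23.8% of 27025 genes), among them 10 of 19 zinc transporters and 7 of the 11 matched members that met the criteria. The matches describe letters in these windows, sites outside the 250 bases were not counted, and binding was not measured.

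Among the Slc26 anion exchangers, 2 of 9 members met the criteria, beside 16.3% of all genes in any pair, and both were higher in endoderm. This count, too, is too small to set the family apart. *Slc26a2*, a sulfate transporter, had 2208, 666 and 599 reads in endoderm, mesoderm and epiblast, or 13.7, 4.22 and 3.63 RPKM, and gave 58.5%, 56.7% and 49.6% of the family sum. Endoderm was 3.25-fold over mesoderm (2.98 to 3.55) and 3.78-fold over epiblast (3.45 to 4.14). *Slc26a6* (chr9:108853283-108913049), an apical exchanger of chloride, bicarbonate and oxalate, had 772, 128 and 122 reads, or 5.57, 0.941 and 0.858 RPKM. Endoderm was 5.91-fold over mesoderm (4.90 to 7.19) and 6.49-fold over epiblast (5.35 to 7.92), while mesoderm and epiblast differed 1.10-fold (0.849 to 1.42).

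*Slc26a11*, a second sulfate transporter of the family, was at 2.48, 1.16 and 1.07 RPKM, with endoderm 2.13-fold over mesoderm (1.72 to 2.65) and 2.32-fold over epiblast (1.87 to 2.89). *Slc26a10* ran the other way, with 57, 87 and 123 reads (0.618, 0.962 and 1.30 RPKM), and epiblast was 2.10-fold over endoderm (1.53 to 2.93). Reads covered only 46.0% to 50.1% of its length, and it overlaps *B4galnt1* on the other strand. The remaining 5 members reached 4 to 143 reads, the most in *Slc26a9*, an epithelial chloride transporter with 143, 6 and 12 reads.

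Sulfate also enters cells by the sodium-coupled Slc13 family, and here the largest value of all members was found. *Slc13a4* (chr6:35267957-35308131), a sulfate transporter best known from placenta and brain barriers, had 43326, 367 and 360 reads, or 303.6, 2.62 and 2.46 RPKM. Endoderm was 115.8-fold over mesoderm (104.5 to 128.7) and 123.4-fold over epiblast (111.2 to 137.3), and mesoderm and epiblast differed 1.07-fold (0.919 to 1.24). The mesoderm and epiblast levels were 0.864% and 0.810% of that in endoderm. These shares were above the 0.0779% and 0.0656% of the summed visceral endoderm markers. They were below the 23.9% and 1.84% of the summed definitive and anterior ones. In mesoderm each single marker of that second list was above *Slc13a4*, the lowest being *Sox17* (2.54%). In epiblast *Cer1* (0.478%) was below *Slc13a4*, *Sox17* (0.815%) was close to it, and *Foxa2* and *Hhex* were above. Reads covered 99.0% and 98.8% of *Slc13a4* in mesoderm and epiblast. In endoderm *Slc13a4* gave 97.5% of the Slc13 sum.

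*Slc13a3* (chr2:165405028-165473230), which carries dicarboxylates such as succinate, had 1049, 2 and 2 reads, or 7.81, 0.0152 and 0.0145 RPKM. The ratios of 514.4 (142.0 to 4253) to mesoderm and 537.7 (148.5 to 4446) to epiblast have wide intervals because they rest on 2 reads each. The other 2 members, *Slc13a1* and *Slc13a5*, reached 8 to 12 reads. Sulfate is used after activation to its donor form, and 2 of the 4 genes of that list met the criteria, both higher in endoderm than in both other layers: the synthase *Papss1* had 40.5, 17.1 and 16.8 RPKM and the Golgi donor carrier *Slc35b3* had 9.20, 2.10 and 1.72.

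Both sodium-phosphate cotransporters of Slc34 had nearly all of their reads in the endoderm library. *Slc34a2* (chr5:53038081-53071664), the cotransporter of intestine and lung, had 2005, 28 and 6 reads, or 11.5, 0.164 and 0.0336 RPKM, with endoderm 70.2-fold over mesoderm (48.4 to 106.0) and 342.6-fold over epiblast (157.1 to 934.7). *Slc34a3*, known from the kidney, had 173, 2 and 8 reads, or 2.04, 0.0241 and 0.0922 RPKM. It stayed under the level criterion with ratios of 84.8 (23.1 to 706.0) and 22.2 (11.004 to 52.2), and its 173 reads covered 98.5% of the gene length. The phosphate exporter *Xpr1* was in the same order, at 20.5, 4.04 and 2.76 RPKM, and endoderm was 5.06-fold over mesoderm (4.76 to 5.38) and 7.41-fold over epiblast (6.91 to 7.95). In contrast, the widely expressed importers *Slc20a1* (23.4, 20.6 and 23.0 RPKM) and *Slc20a2* (21.4, 20.1 and 23.8 RPKM) did not meet the criteria.

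Of the 15 Slc22 members only *Slc22a23* met the criteria. This transporter without an established substrate (chr13:34179158-34345182) had 7413, 2756 and 851 reads, or 28.5, 10.8 and 3.19 RPKM. Its levels were graded as those of *Slc39a8* were, with endoderm 2.64-fold over mesoderm (2.52 to 2.76), endoderm 8.93-fold over epiblast (8.32 to 9.60) and mesoderm 3.39-fold over epiblast (3.13 to 3.66). It gave 71.7% of the family sum in endoderm and 58.1% in mesoderm. In epiblast *Slc22a17*, a receptor for lipocalin-2, led with 46.1%, and it had 340, 466 and 463 reads (3.56, 4.97 and 4.73 RPKM).

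*Slc22a6* and *Slc22a8*, the organic anion transporters of the kidney proximal tubule, lie side by side on chromosome 19 with 6203 bases and no protein-coding gene between them. *Slc22a8* (chr19:8591254-8611835) had 440, 2 and 0 reads, or 3.02, 0.014 and 0 RPKM. *Slc22a6* (chr19:8618039-8628299) had 173, 6 and 0 reads, or 1.03, 0.0365 and 0 RPKM. Their endoderm to mesoderm ratios were 215.8 (59.4 to 1787) and 28.3 (12.7 to 78.1), and against the 0 reads of epiblast, taken as 3 reads in that library, endoderm was at least 150.4-fold and 59.1-fold higher. Both were below an RPKM of 5, and their reads covered 73.0% and 73.1% of the gene length.

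The 250 bases before the RefSeq starts of this pair (GRCm38.p6, plus strand) are shown for the factor HNF1, whose half-site GTTAAT is in capitals, searched on both strands. The coordinates are chr19:8592932-8593181 for *Slc22a8* and chr19:8617746-8617995 for *Slc22a6*.
Slc22a8: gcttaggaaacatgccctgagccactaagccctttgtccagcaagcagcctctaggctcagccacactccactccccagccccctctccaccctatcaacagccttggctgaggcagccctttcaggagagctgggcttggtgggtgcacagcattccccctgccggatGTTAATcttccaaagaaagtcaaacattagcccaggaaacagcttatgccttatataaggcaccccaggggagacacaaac
Slc22a6: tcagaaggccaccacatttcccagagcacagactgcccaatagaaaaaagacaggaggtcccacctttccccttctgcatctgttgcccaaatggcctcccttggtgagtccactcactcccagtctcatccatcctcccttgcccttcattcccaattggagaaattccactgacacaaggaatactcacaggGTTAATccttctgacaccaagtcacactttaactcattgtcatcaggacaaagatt
The half-site began 81 bases before the start of *Slc22a8* and 56 bases before that of *Slc22a6*, on the same strand as the gene. It was found before 6.43% of the 32851 starts (7.49% of genes) and for 6 of the 50 matched members (12.0%). The window of *Slc22a8* also held 1 metal response element core, left in lower case, which does not overlap the half-site. The HNF4 core CAAAGTCC or CAAAGGTC was in 3 of 50 members (6.0%, against 2.54% of genes), none of which met the criteria, and the GATA motif AGATAA or TGATAA was in 10 (20.0%, against 18.8%).

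The 12 other Slc22 members reached 2 to 466 reads. Only *Slc22a17* and *Slc22a5*, the carnitine transporter with 348, 220 and 186 reads (2.68, 1.73 and 1.40 RPKM), passed an RPKM of 1 among them.

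The Slc5 family held members with different peaks. *Slc5a6*, which takes up biotin and pantothenate, had 1031, 598 and 408 reads, or 7.16, 4.24 and 2.77 RPKM, and was the only one to meet the criteria, with endoderm 2.59-fold over epiblast (2.31 to 2.91). Its endoderm to mesoderm ratio was 1.69 (1.53 to 1.87), and it overlaps *Atraid* on the other strand. *Slc5a5*, the iodide transporter of the thyroid, peaked in epiblast with 81, 40 and 463 reads (0.661, 0.333 and 3.68 RPKM). Epiblast was 5.58-fold over endoderm (4.39 to 7.15) and 11.1-fold over mesoderm (8.01 to 15.7), the largest excess of epiblast over both other layers among the members described by name, at a level below an RPKM of 5.

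Both myo-inositol transporters of the family were detected, in different orders. *Slc5a3* had 1083, 1624 and 613 reads (2.38, 3.64 and 1.31 RPKM), and mesoderm was 2.77-fold over epiblast (2.52 to 3.04). It shares exons on the same strand with *Mrps6* and *Gm49711*, so its level is uncertain. *Slc5a11* had 132, 0 and 4 reads (1.35, 0 and 0.04 RPKM), with endoderm at least 43.2-fold over mesoderm, where 0 reads were taken as 3, and a ratio of 33.8 (12.9 to 126.0) to epiblast. The other 7 members reached 1 to 145 reads, the most in the choline transporter *Slc5a7*, which had 38, 145 and 94.

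The sodium gradient that drives Slc5, Slc13 and Slc34 transport is kept by the Na,K-ATPase, of which some beta subunits and regulators differed between the layers. *Atp1b1* had 127.7, 1.88 and 5.93 RPKM, with endoderm 67.9-fold over mesoderm (58.8 to 78.9) and 21.6-fold over epiblast (19.9 to 23.4). The alternative beta subunit *Atp1b2* ran the other way, at 1.55, 23.0 and 17.0 RPKM, and the remaining one, *Atp1b3*, was even at 81.0, 90.9 and 77.0. The regulator *Fxyd2* had 1376, 8 and 3 reads (42.7, 0.253 and 0.0909 RPKM), whereas *Fxyd6* had 6.95, 20.5 and 31.4 RPKM. Of the 13 genes counted here, 4 met the criteria between endoderm and mesoderm (2 higher in endoderm, 2 lower), beside 11.9% of all genes. Between endoderm and epiblast 4 met them (2 higher in endoderm, 2 lower), beside 12.6% of all genes. Between mesoderm and epiblast 1 did, *Atp1b1*, which was higher in epiblast.

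PDZ scaffold proteins hold apical transporters in the membrane of microvilli, and 3 of 4 genes of that list were higher in endoderm than in both other layers. Of all genes, 7.44% were higher in endoderm than in mesoderm and 8.02% higher than in epiblast. *Slc9a3r1* had 410.9, 71.8 and 84.7 RPKM and *Pdzk1* had 75.9, 4.16 and 5.54. *Pdzd3* had 7.83, 0 and 0.0859 RPKM, with endoderm at least 232.4-fold over mesoderm, where 0 reads were taken as 3, and 91.1-fold over epiblast (46.0 to 211.9).

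Bicarbonate is moved by Slc26a6 and Slc39a8 and by the Slc4 family, and is made by carbonic anhydrases. Of 10 Slc4 genes only *Slc4a2* met the criteria, at 29.8, 12.0 and 9.78 RPKM. Of 16 carbonic anhydrase genes, *Car4* (1251, 260.9 and 130.9 RPKM), *Car2* (105.9, 27.6 and 23.0) and *Car7* (183.9, 0.334 and 0.274) were higher in endoderm than in both other layers. *Car3* was lowest in endoderm, at 1.64, 15.9 and 8.87 RPKM, and *Car14*, at 48.3, 94.8 and 97.6, stood in epiblast at 2.02 times its endoderm level (1.94 to 2.11).

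**Figure D4:**
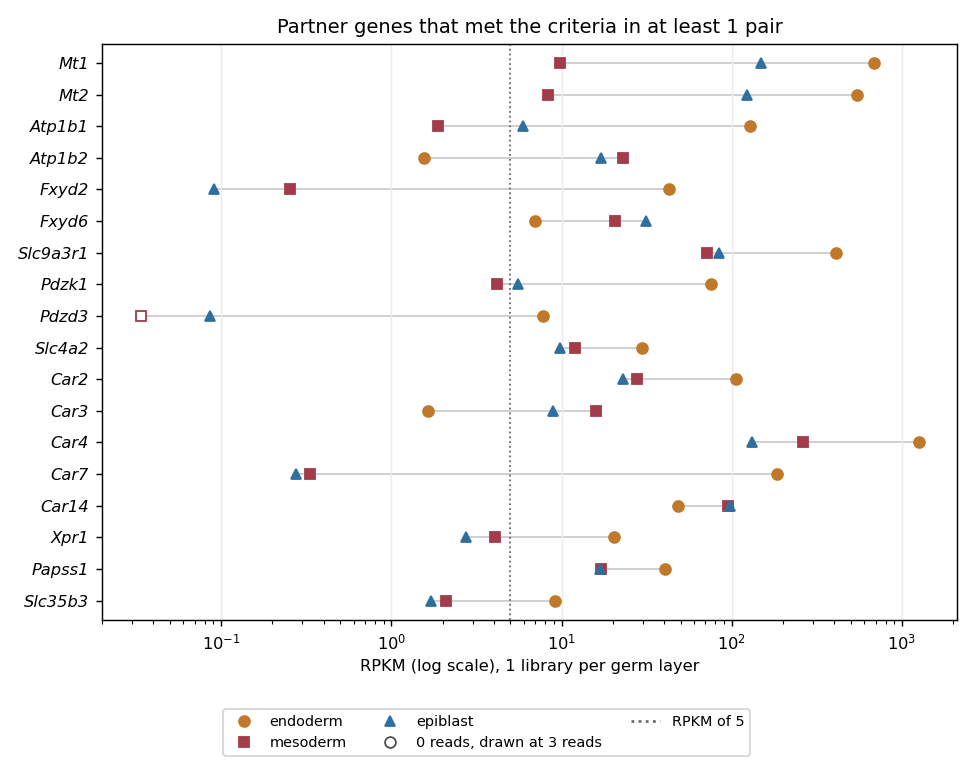
RPKM on a log axis of the 18 genes from the partner lists that met the criteria in 1 pair or more, in endoderm (circles), mesoderm (squares) and epiblast (triangles), with 1 library per germ layer. *Mt1* and *Mt2* have well-separated values in all 3 layers, and *Atp1b2*, *Fxyd6*, *Car3* and *Car14* are the genes whose circle lies farthest left.

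With no replicates, the spread between embryos is unknown. With edgeR's exact test and an assumed biological coefficient of variation of 0.4 (no spread could be measured), 5 of the 12 members were retained between endoderm and mesoderm (*Slc39a4*, *Slc39a5*, *Slc34a2*, *Slc13a3* and *Slc13a4*), these and *Slc39a8* remained of the 13 between endoderm and epiblast, and none of the 3 remained between mesoderm and epiblast. Of all genes 2.25%, 1.92% and 0.351% met the criteria in that test.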

How the data were processed

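RNA of the E7.5 endoderm, mesoderm and epiblast was sequenced as paired-end reads by the authors, 1 library per germ layer. The submitters' processing notes name TopHat with mm10 and mm9 without a role, and the mapper and counting program of the gene tables are not given in the sources used here. The authors deposited the read count per gene (uniquely mapped reads, no normalization), the RPKM, the gene length and the coverage in percent of that length. The deposited RPKM equals the count divided by length and total, with a largest relative difference of 2.03e-07, and the length of each member was the same in the tables that list it.

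The rule for the members uses symbols only, but the families, members and lists were chosen with earlier results of these data known. Genes absent from a library's table were taken as 0 reads, which allows up to 3 reads, and a fold against 0 reads was computed against 3 reads. Folds against 1 to 3 reads were planned in the same way but are given as ratios with their interval, and no call differed. Intervals are exact (Clopper-Pearson), at 95%, and cover counting error only. The test of Audic and Claverie (two-sided, exact) was written in Python 3.11.15 with SciPy 1.17.1, and was tested on simulated data. With 1 library per layer a quasi-likelihood fit in edgeR was not possible. Alternatives were RPKM>1 or RPKM>10, Fold Change>4, pseudocounts of 0.1 and 1 RPKM, TMM, median of ratios and upper quartile scaling (edgeR 4.0.16, DESeq2 1.42.0), edgeR's exact test with assumed coefficients of variation of 0.2 and 0.4, Benjamini-Yekutieli adjustment, and at least 10 reads in a library.

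Members were described by name where they met the criteria, passed an RPKM of 5, or peaked between 1 and 5 RPKM and passed the fold and FDR criteria in a pair. The others were counted, with values for the member with most reads of a family, and partner genes were named where they met the criteria. Some genes of the partner and marker lists are not reported here. *Slc22a5*, *Slc13a1*, *Slc5a9*, *Slc20a1*, *Slc20a2*, *Atp1b3*, *Mtf1* and *Mt3* were added after their values were seen. Gene positions are from GENCODE M21 (GRCm38), to which all 62 members were matched. Of these, 15 share exon sequence with another gene.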

Additional observations from a re-analysis of the deposited data

How the results depend on the processing

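No paired analysis was possible because each germ layer has 1 library and the labels carry no replicate numbers, and for the same reason no library could be left out. With RPKM>1, 19, 23 and 7 members met the criteria for endoderm against mesoderm, endoderm against epiblast and mesoderm against epiblast, instead of 12, 13 and 3. These are 30.6%, 37.1% and 11.3% of members, beside 19.6%, 20.6% and 10.8% of all genes. With RPKM>10, 8 met them between endoderm and epiblast (12.9%, beside 8.95% of genes). With Fold Change>4, 7 met them between endoderm and mesoderm (11.3%, beside 5.44%) and 0 between mesoderm and epiblast (beside 1.95%). With edgeR's exact test, an assumed biological coefficient of variation of 0.4 left 5, 6 and 0 members (beside 2.25%, 1.92% and 0.351% of genes), and 0.2 left 9, 10 and 2 (beside 6.97%, 7.15% and 2.59%). The median log2 ratio of members rose to 1.15 (endoderm over mesoderm) and 1.47 (endoderm over epiblast) with TMM and with median of ratios scaling, which moved the median of all genes by 0.11, and fell to 1.23 with upper quartile scaling in the latter pair, which moved it by −0.13. Of 1224 ratios of named members under these alternatives 6 turned in direction, all near equality: *Slc30a9* for endoderm over epiblast (log2 −0.12, upper quartile), and for mesoderm over epiblast *Slc39a7* (−0.00072 with TMM, −0.0015 with median of ratios, −0.063 with upper quartile), *Slc39a11* (−0.0128, upper quartile) and *Slc30a6* (−0.0015, upper quartile). All 6 arose under the scalings, which move all ratios of a pair alike. The reported log2 ratio was 0.017 for *Slc30a9*, and 0.0025, 0.053 and 0.064 for *Slc39a7*, *Slc39a11* and *Slc30a6*. The other alternatives could not turn a ratio: thresholds, tests and the read filter leave it unchanged, and pseudocounts keep its sign. The kept directions under those are therefore no check. The other ratios kept their direction, 1153 also their side of the criteria, while 44 no longer passed them and 21 newly did. Members with fewer than about 10 reads have wide intervals at this depth.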

Other observations

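Several members with few reads were found almost only in the endoderm library. *Slc5a9*, a sodium-coupled sugar transporter, had 90, 0 and 11 reads in endoderm, mesoderm and epiblast, and *Slc26a9* had 143, 6 and 12. At a similar number of endoderm reads the coverage of the gene length differed between members: 173 reads covered 98.5% of *Slc34a3* (2031 bases) and 173 reads covered 73.1% of *Slc22a6* (4026 bases), while 440 reads covered 73.0% of *Slc22a8* (3495 bases). These genes were picked after their values were seen, and which transcripts the reads came from was not analysed here.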
